A study of Homo sapiens with 6 samples.

Results

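Respiratory complex I is described here through 49 nuclear genes, 36 for subunits and 13 for assembly factors, out of 57688 gene rows in the abundance table. They were taken by gene symbol, each of the 49 was found once, and 47 had a mean of at least 1 FPKM (reads scaled by gene length and by the library's total) over the 6 libraries, 34 subunits and 13 assembly factors. NDUFA7 and NDUFV2 lay below that level and were not tested. The libraries were RNA sequencing of WM3248, a human melanoma cell line labelled VGP primary melanoma. In the siNC group (n = 3) the cells received a negative control siRNA, and in the siPGC1a group (n = 3) an siRNA against PPARGC1A, the gene of PGC1-alpha. Both siRNAs were given at 30 nM with a lipid reagent, and RNA was taken after 48 h. Neither label names a genotype change or a separate clone, and a single siRNA product stands for the knockdown. Nothing in the labels tells separate cultures from repeat preparations of one culture, so the spread behind each p-value may be purely technical.

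Complex I takes electrons from NADH and passes them over a flavin and a chain of iron-sulfur clusters to ubiquinone, and it pumps protons across the inner mitochondrial membrane. Its matrix arm holds the N module, where NADH is oxidised, and the Q module, where ubiquinone is reduced, and its membrane arm has a proximal and a distal part. Core subunits carry out the chemistry, accessory subunits surround them, and assembly factors join the modules and are absent from the finished enzyme. PGC1-alpha is a coactivator that works with transcription factors such as NRF1 and the estrogen-related receptors on nuclear genes of respiration. The core membrane subunits encoded in mitochondrial DNA were not analysed here.

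Each library was worth 25180000 to 26440000 reads, and principal component 1 of all tested genes, with 74.4% of the variance, set siNC apart from siPGC1a. PPARGC1A, the targeted gene, stood at 0.932, 1.04 and 0.947 FPKM with siNC and at 0.400, 0.354 and 0.413 FPKM with siPGC1a (log2 difference -0.51, SE 0.066, limma adjusted p = 0.000234). The size of this difference depends on the scale at so low a level: the FPKM means changed by -60.0%, and the log2 difference was -1.14 with a pseudocount of 0.1 and -1.32 with limma-voom on recovered reads. Of the melanocyte markers, 6 of 7 had a mean of at least 1 FPKM, 4 of these 6 were lower and 0 higher, and the summed level of all 7 was 645.3 to 667.3 FPKM in siNC and 474.8 to 514.4 FPKM in siPGC1a. The 5 fibroblast markers summed to 14.4 to 15.6 FPKM in siNC and 9.68 to 11.1 FPKM in siPGC1a, and the 5 keratinocyte markers, nearly all of it KRT10, to 20.5 to 21.3 and 20.7 to 25.8 FPKM. The 3 endothelial markers in the table summed to at most 0.362 FPKM and the 4 immune markers to at most 1.31 FPKM, with PTPRC and KRT1 at 0 throughout. The part of these shifts in the results below was not tested.

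Of all 12020 genes tested, 48.1% passed the threshold (limma adjusted p below 0.05), 25.6% higher and 22.5% lower in siPGC1a. Among the 34 tested subunits 20 were higher (58.8%), 0 were lower and 14 did not pass. At an unadjusted p below 0.05 there was 1 subunit on the lower side, NDUFV3, described below. These are bulk samples, in which fewer cells of a type and less RNA per cell cannot be told apart. The median log2 difference of the subunits was 0.16, against 0.01 over all genes, and the largest was 0.40. In FPKM the 20 higher subunits gained 10.8 to 35.1%. All 3 siPGC1a values lay above all 3 siNC values for 22 of the 34 subunits and below them for 1, whereas groups lay apart for 57.2% of all genes, 29.8% with siPGC1a above and 27.4% with it below. For a single gene the exact two-sided permutation test of 3 against 3 cannot give a p below 0.1. The count depends on the setting: 12 subunits were called higher without siNC replicate 2 and 9 with no filter on low genes, with 0 lower in both. Over all genes, 2628 of 12020 were higher without that library and 2440 of 30981 with no filter. With a filter at a mean of 5 FPKM, 22 of 31 subunits were higher, beside 2519 of 7271 genes.

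The promoters of the subunits were searched because PGC1-alpha is known to act through factors that bind there. RefSeq promoter windows (GRCh38.p14, 250 bases before to 50 after the start, 1 window a gene) were found for 43 of the 49 members. FOXRED1, NDUFAF6, NDUFB5, NDUFB9, NDUFC2 and NDUFS5 had none. The NRF1 word GCGCATGCG, read on both strands, stood in 4 of the 18 windows of subunits called higher (22.2%) and in 0 of the 12 of tested subunits that did not pass. It stood in 4.0% of the 9009 windows of tested genes and 2.1% of all 27305 windows. Of its 4 carriers called higher, NDUFA8 and NDUFS6 kept their calls in all 15 alternative settings. NDUFB4 lost its call in 10 of the 15 and NDUFS7 in 6, so the split depends on the setting. These are the 4 windows, 5′ to 3′ on the gene's strand, with the searched words in capitals. In NDUFA8 and NDUFB4 the word matches on both strands at overlapping places, and in NDUFS7 it is on the other strand. In NDUFS7 the second run of capitals is the YY1 word.
NDUFA8 (chr9:122159730-122160029, minus strand): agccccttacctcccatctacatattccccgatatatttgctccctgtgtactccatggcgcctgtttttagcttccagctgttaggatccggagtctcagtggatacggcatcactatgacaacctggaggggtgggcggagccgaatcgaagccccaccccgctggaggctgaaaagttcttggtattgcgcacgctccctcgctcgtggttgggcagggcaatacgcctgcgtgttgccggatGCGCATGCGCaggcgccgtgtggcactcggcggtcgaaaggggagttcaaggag
NDUFS6 (chr5:1801157-1801456, plus strand): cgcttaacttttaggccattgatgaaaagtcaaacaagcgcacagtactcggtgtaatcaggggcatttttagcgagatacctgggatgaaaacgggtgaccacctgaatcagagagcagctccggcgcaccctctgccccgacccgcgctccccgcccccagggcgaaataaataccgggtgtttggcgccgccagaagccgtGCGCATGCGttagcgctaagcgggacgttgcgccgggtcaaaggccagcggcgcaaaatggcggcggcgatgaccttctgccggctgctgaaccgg
NDUFS7 (chr19:1383657-1383956, plus strand): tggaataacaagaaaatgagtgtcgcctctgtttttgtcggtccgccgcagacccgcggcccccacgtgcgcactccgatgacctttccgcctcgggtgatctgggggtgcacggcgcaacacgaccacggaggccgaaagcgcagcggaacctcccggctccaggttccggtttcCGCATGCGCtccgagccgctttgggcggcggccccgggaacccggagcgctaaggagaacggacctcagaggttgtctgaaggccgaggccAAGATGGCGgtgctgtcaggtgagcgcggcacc
NDUFB4 (chr3:120596086-120596385, plus strand): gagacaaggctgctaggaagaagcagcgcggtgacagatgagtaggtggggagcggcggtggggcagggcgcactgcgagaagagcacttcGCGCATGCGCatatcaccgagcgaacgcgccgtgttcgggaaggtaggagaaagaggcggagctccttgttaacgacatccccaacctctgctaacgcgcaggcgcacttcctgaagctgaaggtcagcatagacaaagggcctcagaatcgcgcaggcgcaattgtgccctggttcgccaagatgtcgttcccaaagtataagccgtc

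Counted from the start, the first match began at position -4 in NDUFA8, -46 in NDUFS6, -74 in NDUFS7 and -159 in NDUFB4. The YY1 word AAGATGGCG was found in 5 of 32 subunit windows (15.6%) and 4.3% of those of tested genes. Its 5 carriers were NDUFA6, NDUFS4 and NDUFS7, which rose, NDUFA9, which did not pass, and NDUFA7, which was not tested. In each of them the word began 10 to 25 bases after the start. The ETS word CCGGAAG stood in 5 of the 32 (15.6%, against 20.4% of tested genes), in 2 of the 18 higher (11.1%) and in 3 of the 12 that did not pass (25.0%), so that its split ran the other way from that of the NRF1 word. The YY1 word stood in 3 of the 18 (16.7%) and 1 of the 12 (8.3%). Of the rest, the receptor word CAAGGTCA stood in NDUFA5 alone (3.1%, against 0.7%) and the CRE word TGACGTCA in NDUFB2 and NDUFA10 (6.2%, against 3.4%). Among the 11 windows of assembly factors, NDUFAF5, which did not pass, held the NRF1 word at position -4, and none of the 3 factors called higher held any of the 5 words. NDUFAF4 and TIMMDC1 held the ETS word, and ACAD9 and NUBPL the CRE word. The shares were not tested against each other, and a match does not show that a factor was bound.

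**Figure D1:**
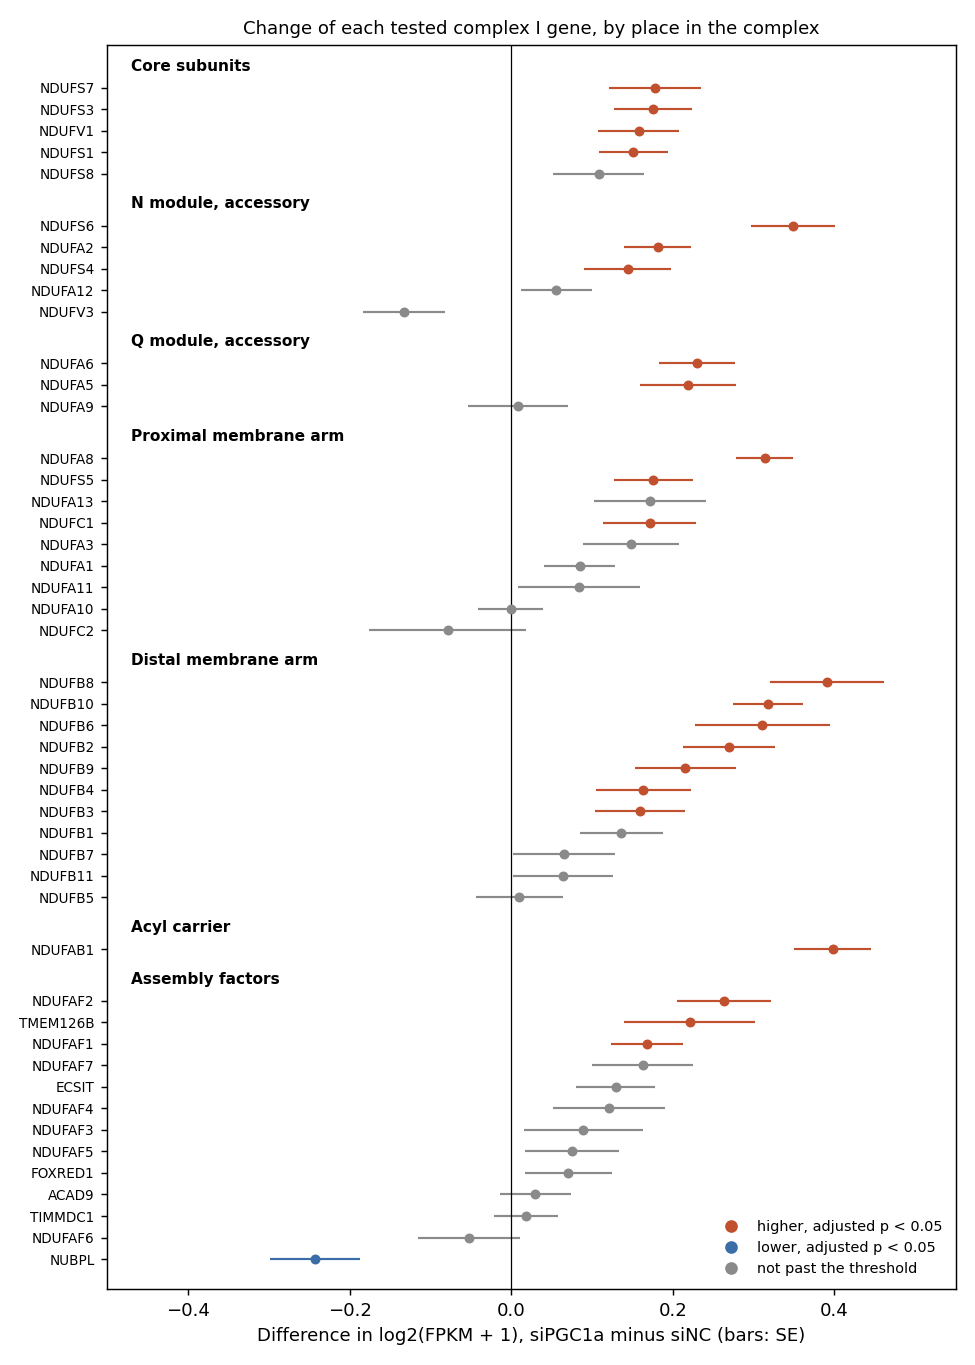
Difference of each tested complex I gene in log2(FPKM + 1), siPGC1a minus siNC (x axis, points with SE bars), grouped by place in the complex; red and blue points passed the limma threshold as higher and lower, grey points did not. The 20 subunits called higher lie in every group of subunits, and NUBPL is the only blue point.

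Of the core subunits, 4 of 5 tested rose (80%, against 25.6% of all genes). NDUFV1, the flavin-carrying subunit that oxidises NADH, stood at 23.1, 24.5 and 24.9 FPKM in siNC and 26.8, 28.8 and 25.8 FPKM in siPGC1a (log2 difference 0.16, SE 0.050, limma adjusted p = 0.0263). NDUFS1, which holds iron-sulfur clusters of the N module, was at 12.8, 12.0 and 12.3 FPKM and then 13.5, 14.0 and 14.0 FPKM (0.15, SE 0.043, adjusted p = 0.0159). In the Q module, NDUFS3 went from 17.7, 18.8 and 19.1 FPKM to 19.9, 21.7 and 21.5 FPKM (0.18, SE 0.049, adjusted p = 0.0143). For all of these the groups did not overlap, and the gains in FPKM were 11.9 to 13.6%. NDUFS7, whose cluster hands electrons to ubiquinone, stood at 7.39, 8.12 and 7.95 FPKM in siNC and 9.28, 9.40 and 8.27 FPKM in siPGC1a (0.18, SE 0.057, adjusted p = 0.0272). NDUFS8, the other cluster-holding subunit of the Q module, was at 12.8, 14.7 and 13.8 FPKM and at 14.7, 15.8 and 14.3 FPKM, where the groups overlapped (0.11, SE 0.056, adjusted p = 0.139). These calls were near the threshold. The call of NDUFV1 was lost on leaving out replicate 1 or 2 of siNC (adjusted p = 0.0885 and 0.0505) or of siPGC1a (0.0539 and 0.0855), and that of NDUFS7 without siNC replicate 1 (0.0903), siNC replicate 3 (0.0576), siPGC1a replicate 1 (0.0891) or siPGC1a replicate 2 (0.0806). NDUFS1 lost it without siNC replicate 2 (0.0636) or 3 (0.0634), and NDUFS3 without siNC replicate 1 (0.0515).

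Among the 5 tested accessory subunits of the N module 3 rose (60%, against 25.6% of all genes). NDUFS6, a zinc-binding subunit needed late in assembly, was at 33.5, 36.2 and 35.2 FPKM in siNC and 41.7, 46.9 and 45.9 FPKM in siPGC1a, so that every siPGC1a value was higher (log2 difference 0.35, SE 0.052, limma adjusted p = 0.000506). NDUFA2, which has a thioredoxin-like fold, gave 43.2, 43.1 and 45.2 FPKM and then 48.0, 49.9 and 51.6 FPKM (0.18, SE 0.042, adjusted p = 0.00561). NDUFS4, whose loss causes Leigh syndrome, went from a mean of 45.4 ± 2.54 to 50.3 ± 2.80 FPKM (SD, n = 3, adjusted p = 0.0488). It lost its call without siNC replicate 1 (0.0662) or 2 (0.176) and without siPGC1a replicate 1 (0.067) or 3 (0.14). NDUFV3, a small subunit beside NDUFV1, had lower values, 4.88, 4.78 and 5.19 FPKM in siNC and 4.28, 4.35 and 4.65 FPKM in siPGC1a. Its groups did not overlap but it missed the threshold (-0.13, SE 0.051, adjusted p = 0.0539), and it was called lower with median-ratio scaling (0.0411), with the replicate block (0.0388), without siPGC1a replicate 3 (0.0361) and with limma-voom on recovered reads (0.0402). NDUFA12 was at 30.5 ± 0.669 and 31.7 ± 1.49 FPKM (SD, n = 3, adjusted p = 0.323).

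In the Q module the accessory subunits NDUFA6 and NDUFA5 rose and NDUFA9 did not pass. NDUFA6, a LYR-motif protein that docks the acyl carrier protein, went from 39.7, 39.7 and 41.8 FPKM in siNC to 44.7, 48.6 and 49.4 FPKM in siPGC1a (log2 difference 0.23, SE 0.047, limma adjusted p = 0.00297). NDUFA5 was much lower in level, at 2.21, 1.88 and 2.04 FPKM and 2.64, 2.44 and 2.54 FPKM (0.22, SE 0.059, adjusted p = 0.0127), and lost its call without siNC replicate 2 (0.0508). NDUFA9, a subunit with a dinucleotide-binding fold, stood at 1.43 ± 0.023 and 1.45 ± 0.13 FPKM (SD, n = 3, adjusted p = 0.917).

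NDUFAB1 is the mitochondrial acyl carrier protein that sits in both arms and also serves fatty acid synthesis and iron-sulfur cluster assembly. In the fit as reported it had the largest log2 difference of the complex. Its values were 51.6, 51.4 and 49.8 FPKM in siNC and 63.4, 67.4 and 71.7 FPKM in siPGC1a, and every siPGC1a library lay above every siNC library (log2 difference 0.40, SE 0.048, limma adjusted p = 0.000147). Between the settings tried the difference ranged from 0.31 to 0.44. With a pseudocount of 0.1 it was 0.40 and that of NDUFB8 was larger, 0.43, so the first place depends on the scale.

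The distal membrane arm, made of the NDUFB subunits, had 7 of 11 members higher (63.6%, against 25.6% of all genes). NDUFB8 stood at 8.93, 7.995 and 8.10 FPKM in siNC and 9.96, 12.0 and 11.8 FPKM in siPGC1a, the largest gain of the complex in FPKM terms, 35.1% (log2 difference 0.39, SE 0.071, limma adjusted p = 0.00155). NDUFB10, a cysteine-rich subunit on the intermembrane side, went from 84.1, 86.8 and 86.7 FPKM to 101.1, 111.4 and 109.7 FPKM (0.32, SE 0.044, adjusted p = 0.00032). NDUFB2 was at 10.3, 10.2 and 10.5 FPKM and then at 11.6, 13.01 and 13.6 FPKM (0.27, SE 0.056, adjusted p = 0.00342). In all 3 of these subunits the siPGC1a values lay above the siNC values. NDUFB6, a small membrane subunit, spread more, with 20.3, 18.4 and 17.4 FPKM in siNC and 20.9, 22.9 and 26.7 FPKM in siPGC1a (0.31, SE 0.084, adjusted p = 0.0126), and it lost its call with no filter (0.0933). NDUFB9, the other LYR-motif subunit, rose from 19.7 ± 0.801 to 23.0 ± 2.04 FPKM (SD, n = 3, adjusted p = 0.0179), a call lost without siNC replicate 2 (0.0643), siPGC1a replicate 2 (0.0511) or siPGC1a replicate 3 (0.0555). NDUFB3 and NDUFB4 gained 12.1 and 12.7% with adjusted p values of 0.0379 and 0.0429. Both lost their calls when any library but siPGC1a replicate 1 was left out (0.0613 to 0.108 for NDUFB3, 0.0721 to 0.114 for NDUFB4). NDUFB1 missed the threshold with groups apart (0.14, adjusted p = 0.0523), and it was called higher without siPGC1a replicate 1 (0.0153). NDUFB5, NDUFB7 and NDUFB11 had overlapping groups and adjusted p values of 0.889, 0.415 and 0.423, and NDUFB11 was called higher without siPGC1a replicate 1 (0.0205).

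In the proximal membrane arm 3 of 9 subunits rose (33.3%), near the 25.6% of all genes called higher. NDUFA8, an intermembrane-space subunit with paired cysteine motifs, was at 48.6, 48.0 and 48.6 FPKM in siNC and 60.7, 59.1 and 61.5 FPKM in siPGC1a, and it had the smallest adjusted p of the complex (log2 difference 0.31, SE 0.036, limma adjusted p = 0.000108). NDUFS5, of the same cysteine-motif family, went from 160.7, 157.2 and 165.2 FPKM to 172.1, 178.9 and 195.8 FPKM (0.18, SE 0.049, adjusted p = 0.0147), a call lost without siNC replicate 2 (0.0541). NDUFC1 rose from 15.2 ± 0.967 to 17.2 ± 1.05 FPKM (SD, n = 3, adjusted p = 0.0339), and lost its call without siNC replicate 2 (0.0627) or 3 (0.142) and without siPGC1a replicate 2 (0.0524) or 3 (0.101). NDUFA1, a small membrane subunit encoded on the X chromosome, was the most abundant member per length, at 246.2, 245.1 and 251.5 FPKM and then 246.6, 265.8 and 276.5 FPKM, with overlapping groups (0.08, SE 0.044, adjusted p = 0.142). It was called higher without siPGC1a replicate 1 (0.0182). NDUFA13, also known as GRIM19, stood at 7.71, 9.65 and 8.07 FPKM and at 9.58, 9.81 and 9.52 FPKM (0.17, SE 0.070, adjusted p = 0.067), and it passed without siNC replicate 2 (0.00383). NDUFA10, a kinase-like subunit, was at 11.8 ± 0.101 and 11.8 ± 0.296 FPKM (SD, n = 3, adjusted p = 0.989). NDUFA3, NDUFA11 and NDUFC2 also missed the threshold (adjusted p = 0.0651, 0.383 and 0.529), and NDUFA3 passed without siPGC1a replicate 3 (0.0256).

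**Figure D2:**
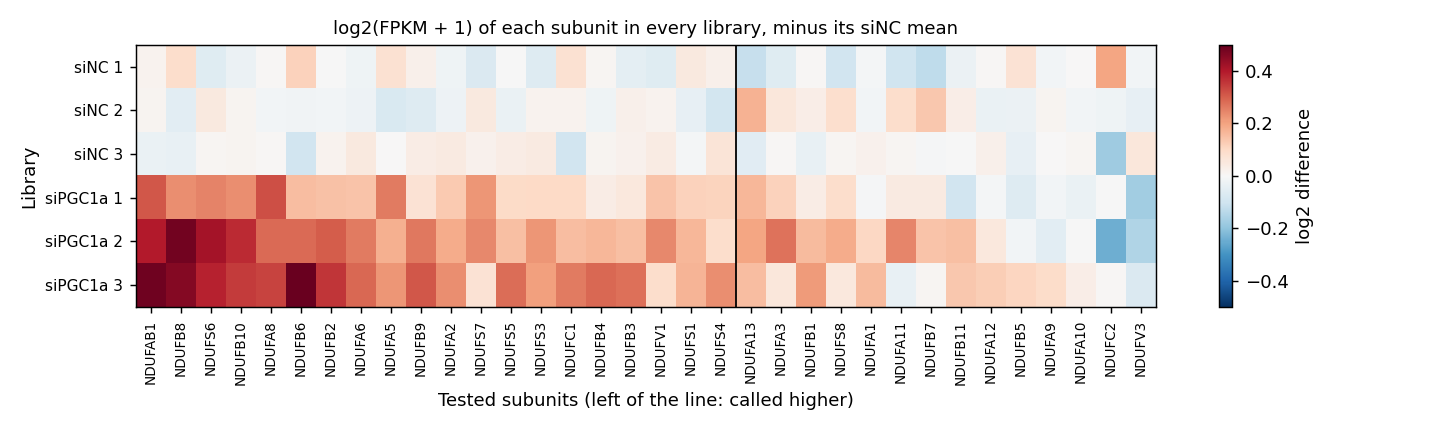
Colour gives log2(FPKM + 1) of each of the 34 tested subunits (columns) in each library (rows), minus the mean of its siNC libraries; columns left of the line were called higher in siPGC1a. Most columns on the left are red in all 3 siPGC1a rows, and the siPGC1a 1 row is paler than the other 2.

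The siPGC1a libraries were not alike. Replicate 1 had the lowest value of its group for 22 of the 34 subunits and replicate 3 the highest for 21. The median log2 difference from the siNC mean was 0.10 in siPGC1a replicate 1, 0.18 in replicate 2 and 0.21 in replicate 3, and it was -0.01, -0.01 and 0.01 in the siNC libraries. Summed over the 34 subunits, the level was 1311, 1342 and 1344 FPKM in siNC and 1421, 1520 and 1553 FPKM in siPGC1a. Without siPGC1a replicate 1 the count of higher subunits was 20, without replicate 2 it was 14 and without replicate 3 it was 16. The count thus did not follow the order of the levels. Without siNC replicate 1, 2 and 3 the subunit counts were 14, 12 and 15, beside 2767, 2628 and 2470 higher of all 12020 genes. With all 6 libraries 3075 genes were higher.

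Taking all settings, 8 of the 20 higher subunits were called in each of the 15 alternatives. They were NDUFAB1, NDUFA8, NDUFB10, NDUFS6, NDUFB8, NDUFA6, NDUFB2 and NDUFA2, which belong to both arms. The share of all higher genes that kept their calls in each alternative was not worked out, so the 8 have no background beside them. The highest adjusted p of the 8 over these alternatives was 0.044, for NDUFA2. No subunit that passed reversed its sign in any of them. The losses named above for single genes are mostly those on leaving out a library. Quantile normalization also took the calls of NDUFS5, NDUFB3, NDUFS4, NDUFB4, NDUFV1, NDUFC1 and NDUFS7 (limma adjusted p = 0.0555 to 0.321). Having no filter took those of the same genes and of NDUFB9, NDUFB6, NDUFS3 and NDUFA5 (0.0522 to 0.165).

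**Figure D3:**
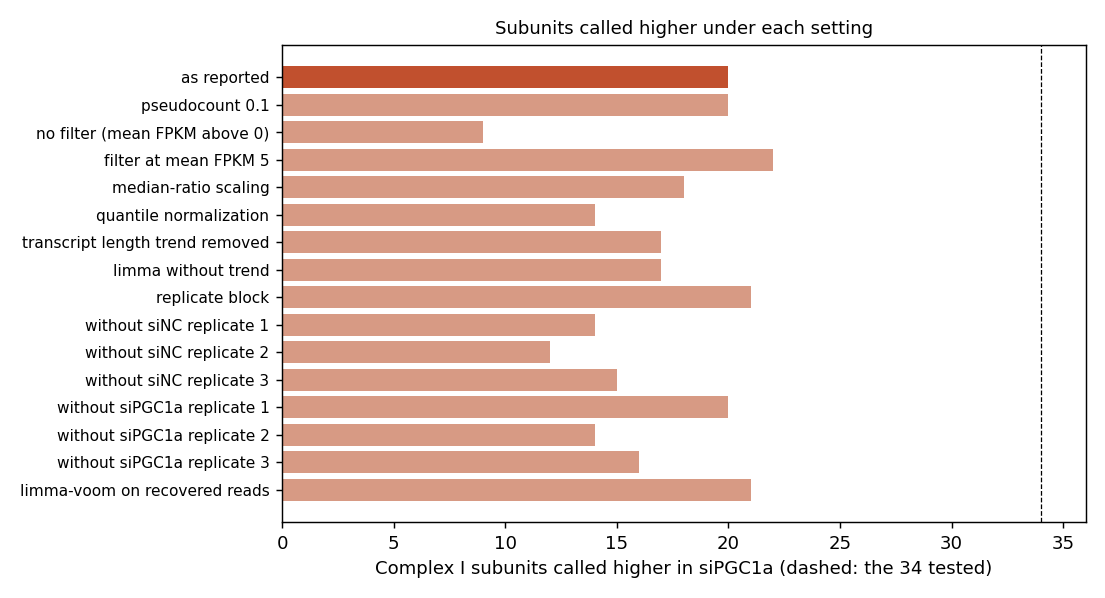
Number of complex I subunits called higher in siPGC1a by limma (x axis, bars) in the fit as reported and in each of the 15 alternatives; the dashed line marks the 34 tested. The count was 20 as reported and ranged from 9 with no filter to 22 with a filter at a mean of 5 FPKM.

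Assembly factors gave 3 higher (23.1%), 1 lower and 9 not past of 13, beside 25.6% higher and 22.5% lower over all genes. Their median log2 difference was 0.09. NDUFAF2, a chaperone of late assembly and a paralog of NDUFA12, went from 11.7, 10.4 and 12.3 FPKM in siNC to 13.5, 14.0 and 14.3 FPKM in siPGC1a (log2 difference 0.26, SE 0.058, limma adjusted p = 0.00464). NUBPL, which is needed to deliver iron-sulfur clusters to the complex, was the one member called lower, at 4.09, 3.77 and 3.75 FPKM and then 3.26, 2.91 and 3.19 FPKM (-0.24, SE 0.055, adjusted p = 0.00554). Neither gene's groups overlapped, and both kept their calls in each alternative that tested them, 15 for NDUFAF2 and 14 for NUBPL.

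Of the 5 members of the MCIA complex, which builds the membrane arm, 2 rose (40%, against 25.6% of all genes). NDUFAF1 was at 11.3, 10.5 and 11.2 FPKM in siNC and 12.1, 12.4 and 12.8 FPKM in siPGC1a (log2 difference 0.17, SE 0.045, limma adjusted p = 0.0115). TMEM126B, a membrane protein of the same complex, stood at 9.85, 9.91 and 9.94 FPKM and at 11.4, 10.3 and 13.7 FPKM (0.22, SE 0.081, adjusted p = 0.0467). Its siPGC1a values spread widely, and the call was lost when any library but siPGC1a replicate 2 was left out (0.0763 to 0.093). ECSIT, which also acts in Toll-like receptor signalling, missed the threshold with groups apart (17.0 ± 0.621 and 18.7 ± 0.972 FPKM, SD, n = 3, adjusted p = 0.053) and was called without siPGC1a replicate 3 (0.017). ACAD9, an acyl-CoA dehydrogenase relative, and TIMMDC1 did not pass (adjusted p = 0.592 and 0.733). TIMMDC1 was the most abundant assembly factor, at 32.7, 33.8 and 33.7 FPKM in siNC and 32.7, 34.7 and 34.1 FPKM in siPGC1a, with overlapping groups.

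None of the 5 factors of the Q module passed as reported, against 48.1% of all genes. By limma 0 were higher and 0 lower, with 1 at an unadjusted p below 0.05. That one was NDUFAF7, an arginine methyltransferase, at 5.52, 4.87 and 4.90 FPKM in siNC and 5.94, 5.36 and 6.17 FPKM in siPGC1a, where the groups overlapped (log2 difference 0.16, SE 0.062, adjusted p = 0.0542). It passed in 6 of the 15 alternatives, limma-voom on recovered reads among them (0.0424), and also without siNC replicate 1 (0.0235) or siPGC1a replicate 2 (0.0203). NDUFAF3 and NDUFAF4, partners that bind the Q module early, did not pass. NDUFAF3, the next most abundant factor after TIMMDC1, stood at 20.4, 24.4 and 23.1 FPKM in siNC and 22.3, 26.4 and 23.7 FPKM in siPGC1a (log2 difference 0.09, SE 0.074, adjusted p = 0.342), and NDUFAF4 at 4.21 ± 0.447 and 4.66 ± 0.277 FPKM (SD, n = 3, adjusted p = 0.176). The least abundant factors also had overlapping groups. NDUFAF5, which hydroxylates NDUFS7, was at 1.89, 1.89 and 2.13 FPKM and at 2.08, 2.08 and 2.24 FPKM (0.08, SE 0.059, adjusted p = 0.314), and NDUFAF6 at 1.39, 1.51 and 1.53 FPKM and 1.45, 1.25 and 1.47 FPKM (-0.05, SE 0.063, adjusted p = 0.525). FOXRED1, an FAD-dependent oxidoreductase, was at 7.74 ± 0.332 and 8.18 ± 0.512 FPKM (SD, n = 3, adjusted p = 0.3). For the factors as a whole 5 were called higher with the replicate block, 5 of 9 tested with a filter at a mean of 5 FPKM and 1 once a trend on transcript length was removed. Over all genes these settings gave 3253 higher of 12020, 2519 of 7271 and 3011 of 12020.

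A further list of 10 genes that help build complex I, outside the 49, gave 5 higher (50%), 1 lower and 4 not past. CHCHD4 and AIFM1, the import pair that oxidises cysteine-motif proteins of the intermembrane space such as NDUFA8, NDUFS5, NDUFB7 and NDUFB10, rose from 6.76 to 8.61 FPKM (adjusted p = 0.00139) and from 30.7 to 34.7 FPKM (limma adjusted p = 0.00448). COA1 fell from 6.29 to 5.60 FPKM (adjusted p = 0.0311). Among subunits of the other complexes, 5 of 9 of complex III rose and 0 fell, 2 of 11 of complex IV rose and 0 fell, and 7 of 15 of ATP synthase rose and 0 fell, with medians of 0.16, 0.07 and 0.12. Complex II had 1 higher (SDHB) and 1 lower (SDHA) of 4. Shares called higher were 55.6% in complex III, 46.7% in ATP synthase, 25% in complex II and 18.2% in complex IV. Over all genes 25.6% were higher and 22.5% lower, so complexes II and IV did not stand above that share. Leading members were UQCR10 and CYC1 of complex III (37.4 and 32.8% higher), COX7A2 and COX5A of complex IV (17.7 and 16.4%) and ATP5PB and ATP5MC1 of ATP synthase (21.0 and 18.6%). The difference between complex I and these lists was not tested.

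**Figure D4:**
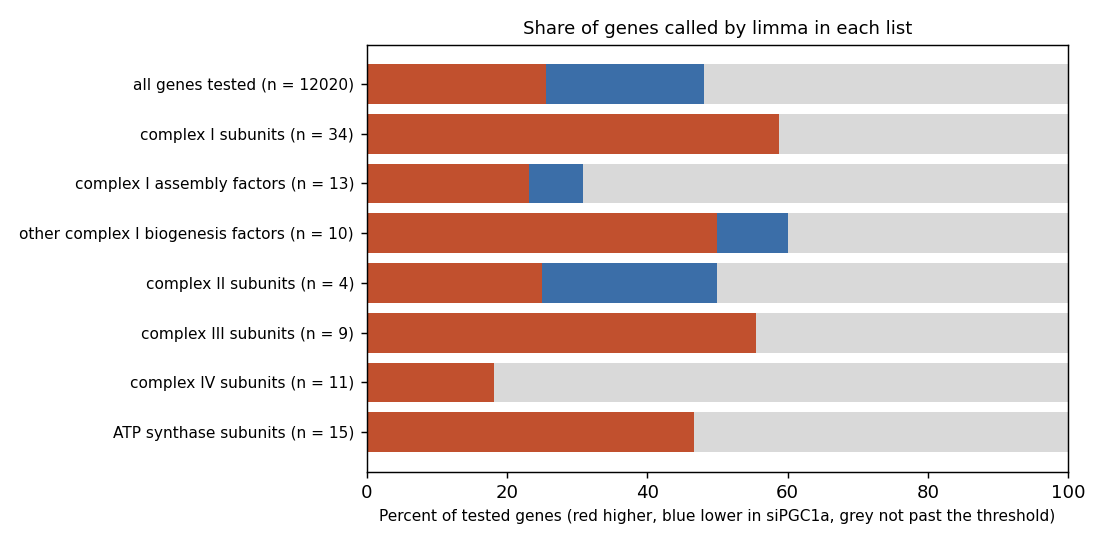
Percent of tested genes called higher (red) or lower (blue) in siPGC1a or not past the threshold (grey) in each list, with the number tested beside its name. Complex I subunits are 58.8% red with no blue, and all genes are 25.6% red and 22.5% blue.

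Of 9 regulators of respiratory genes, nuclear or mitochondrial, 8 were tested. TFAM rose (7.69 to 10.4 FPKM, limma adjusted p = 0.000454), PPARGC1A and YY1 fell (YY1 from 23.0 to 18.8 FPKM, adjusted p = 0.000349), and 5 did not pass. The latter were NRF1 (4.03 and 3.78 FPKM), GABPA, GABPB1, ESRRA and PPRC1, and PPARGC1B was below the filter. NRF1, GABPA, GABPB1, ESRRA and PPRC1 are named here after their values were seen.

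**Figure D5:**
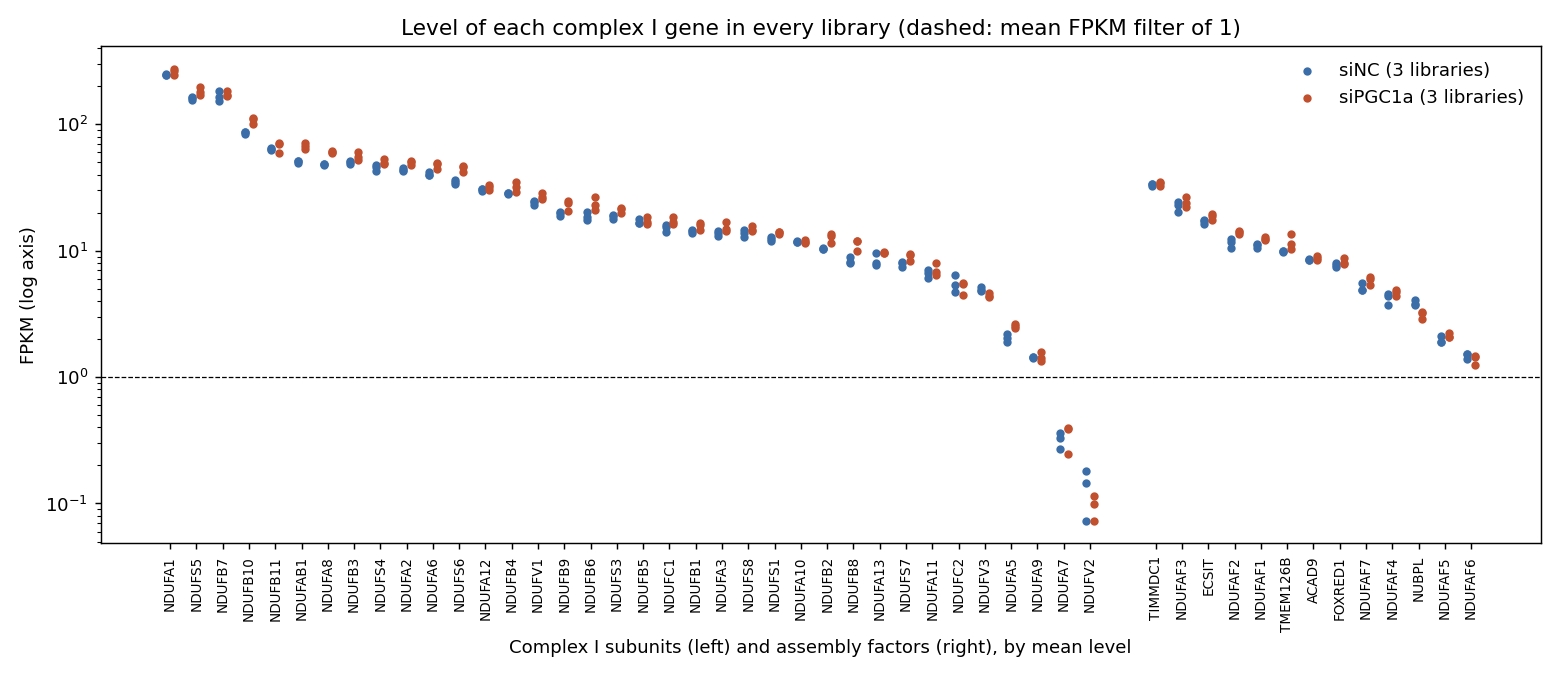
FPKM (log axis) of all 49 members in the 3 siNC (blue) and 3 siPGC1a (red) libraries, subunits on the left and assembly factors on the right, each ordered by mean level; the dashed line is the filter at 1 FPKM. Tested subunits run from NDUFA1 at 255.3 FPKM to NDUFA9 at 1.44 FPKM, and NDUFA7 and NDUFV2 lie below the line.

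Levels per length differed widely between genes whose proteins meet in one complex. Means over the 6 libraries ran from 1.44 FPKM (NDUFA9) to 255.3 FPKM (NDUFA1) among tested subunits, with a median of 20.4, and from 1.44 to 33.6 FPKM among assembly factors, with a median of 8.61. NDUFV2, a core iron-sulfur subunit, stood at 0.181, 0.144 and 0.073 FPKM in siNC and 0.115, 0.073 and 0.099 FPKM in siPGC1a, which is 5 to 13 reads a library. NDUFA7 was at 0.268, 0.332 and 0.364 FPKM and at 0.388, 0.394 and 0.245 FPKM, 9 to 14 reads. Both genes share exon sequence with another gene model on the same strand in GENCODE v29, NDUFV2 with AP005263.1 (28.4% of its exon length) and NDUFA7 with AC010323.1 (32.3%), and AP005263.1 was listed at 0 and AC010323.1 at means of 0.04 FPKM in siNC and 0.02 FPKM in siPGC1a. The pseudogene NDUFV2P1 had a mean of 1.03 FPKM, above its parent gene. In all, 10 subunits share at least 5% of their exon length with a same-strand model, and their median level was 7.95 FPKM (0.114 to 25.6), against 30.7 FPKM (2.29 to 255.3) for the other 26. Reads shared by 2 models may have been dropped or split in the authors' counting, and whether this lowered these levels was not tested. Of the tested subunits with such a neighbour 4 of 8 rose, NDUFB8, NDUFC1, NDUFS3 and NDUFV1, and of those without 16 of 26.

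In 10 tested subunits and 3 assembly factors, exons overlap a tested gene on the opposite strand, and since the strand setting of the counting is not given in the sources used here, reads of the pair cannot be told apart. The 7 of these 10 subunits that rose were NDUFA2, NDUFB2, NDUFB8, NDUFB9, NDUFS1, NDUFS3 and NDUFS7. Of the 24 tested subunits without such a partner 13 rose, and of all genes 25.6%. NDUFAF3, FOXRED1 and NDUFAF7 are the assembly factors. Among the opposite-strand partners 3 rose and 3 fell, and the other tested partners did not pass. NDUFA2, called in each alternative, overlaps IK, which rose from 23.8 to 25.9 FPKM (limma adjusted p = 0.0232) and shares 4.7% of the exon length of NDUFA2. The others that rose were TFPT over NDUFA3 (27.0 to 33.8 FPKM) and CEBPZ over NDUFAF7 (27.9 to 34.2 FPKM). The partners that fell were CELF1 over NDUFS3 (9.58 to 8.39 FPKM), DALRD3 over NDUFAF3 (14.2 to 10.4 FPKM) and SRPRA over FOXRED1 (69.4 to 50.0 FPKM). Their part in the members' values was not tested. Members were also short, with a median exon length of 2131 bases for tested subunits and 4777 for all tested genes. With a smooth trend on that length removed from each library, 17 subunits were higher and 0 lower, with a median log2 difference of 0.13. Over all 12020 genes that setting gave 3011 higher and 2885 lower.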

How the data were processed

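RNA sequencing of 6 libraries, 3 siNC and 3 siPGC1a, was deposited by the authors as one table of FPKM values per gene and library. Per the submitters' processing notes, STAR, Picard, featureCounts and DESeq2 were used with build hg19; roles and versions, the strand setting and the gene annotation are not given in the sources used here. A stranded mRNA kit was used, per the labels' protocols.

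Members, modules, lists and motif words were chosen with earlier results of these data known. Genes averaging 1 FPKM or more, and PPARGC1A regardless, were compared as log2(FPKM + 1) with limma 3.58.1 in R 4.3.3 (two-sided, with a mean-variance trend, no replicate block), and p-values were Benjamini-Hochberg adjusted over all 12020 genes with a threshold of 0.05. Differences are siPGC1a minus siNC on that scale, where the change of a low gene comes out too small. The script was tested on simulated data. Full values are given for PPARGC1A, the 8 higher subunits with the smallest adjusted p, the core subunits, the called assembly factors and the 2 most and 2 least abundant members of each class, and for members near the threshold, which were chosen after their values were seen. Of the other lists up to 2 members a direction are named by adjusted p.

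Depth was worked out from the FPKM steps of short miRNA genes with GENCODE v29 exon lengths (55001 symbols matched), and 91.5 to 92.0% of values of at most 20 reads came out whole within 0.1 read. Libraries of a group differed beyond counting noise (chi-square per degree of freedom 2.18 to 7.23), so none was taken for a copy. GENCODE v29 is of another build than the table and was used for lengths and overlaps only, and promoter sequences are RefSeq's on GRCh38.p14. Limma-voom on recovered reads was added after the data were seen. Alternatives were another pseudocount, 2 filters, 2 scalings, a length trend, no variance trend, the replicate block and leaving out each library.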

Additional observations from a re-analysis of the deposited data

How the results depend on the processing

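PPARGC1A kept its direction and call in all 14 alternatives that tested it (the filter at a mean of 5 FPKM leaves it out). The number of subunits called higher fell to 9 with no filter, where 30981 genes were tested and 2440 were higher. The subunit count was 12 to 20 when one library was left out, lowest without siNC replicate 2, where 2628 of all 12020 genes were higher. With quantile normalization it was 14, beside 2848 higher of all 12020 genes. The median log2 difference of the subunits was then 0.11, the lowest of the settings, against 0.16 as reported. Subunits called lower numbered 1 with median-ratio scaling, 1 with the replicate block, 1 with limma-voom on recovered reads and 0 to 1 when one library was left out, and this was NDUFV3 each time. For assembly factors, the filter at 5 FPKM gave 5 higher and 0 lower (NUBPL is not tested there), the replicate block 5 higher and the length trend 1 higher. Over all genes, 2519 were higher and 1607 lower with the filter at 5 FPKM, where 7271 were tested. The median log2 difference of all genes was 0.05 with that filter, against 0.01 as reported, and 22 of the 31 subunits it left were higher. Where no cause is named it was not tested. Whether the replicate numbers pair the samples was not settled. Deviations from the group means correlated at 0.077, 0.261 and -0.058 for the numbers 1, 2 and 3, and at -0.331 to 0.253 between unlike numbers. The block gave 3253 higher and 2826 lower genes, against 3075 and 2707.

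No called member changed sign. Members that did not pass had signs that changed: with quantile normalization NDUFB7 (-0.0094), NDUFB11 (-0.021), NDUFA12 (-0.012), NDUFB5 (-0.034), TIMMDC1 (-0.048) and NDUFAF6 (0.0008), and with the length trend removed NDUFA10 (0.026) and TIMMDC1 (-0.028). Leaving out one library gave log2 differences of -0.018 to 0.016 for NDUFA10, -0.039 to 0.047 for NDUFB5, -0.17 to 0.020 for NDUFC2, -0.0011 to 0.042 for TIMMDC1 and -0.033 to 0.040 for NDUFA9. Counting noise limits NDUFV2 and NDUFA7, at 14 reads or fewer a library.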
